A study of Mus musculus with 3 samples.

Results

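The glutathione, thioredoxin and antioxidant enzymes of mouse pluripotent cells are described here on 3 Illumina bead arrays, 1 for each culture. The members were chosen by gene symbol, with earlier results of these data known: glutathione S-transferases of the alpha, kappa, mu, omega, pi, theta and zeta classes, microsomal glutathione S-transferases, glutathione peroxidases, peroxiredoxins, thioredoxins, glutaredoxins, superoxide dismutases, the enzymes of glutathione synthesis, catalase, Nqo1, Hmox1 and Srxn1. They came to 51 of 16593 genes and 80 of 25697 probes. Gsr, Prdx5 and Prdx6 were not analysed here.

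The first culture held E3 epiblast stem cells, a line of hybrid background kept on inactivated CF1 feeder fibroblasts in KSR medium with FGF2 at 5 ng/ml and collected with collagenase IV. The second held E3R cells, labelled as reverted epiblast stem cells of the same line. The third held the embryonic stem cell line CGR8. E3R and CGR8 shared gelatin and KSR medium with 1 µM PD0325901 (a MEK inhibitor), 3 µM CHIR99021 (a GSK3 inhibitor) and 1000 U LIF, and were collected on the dish. The labels give all 3 cultures as untreated and the feeder content of the E3 harvest as minimal. Each group had 1 array of 1 line, so differences have no replicate check and no test across samples exists. Medium, feeders and harvest differed together between E3 and E3R and cannot be told apart from the reversion.

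Glutathione is a small thiol made by glutamate-cysteine ligase and glutathione synthetase. Peroxidases use it to reduce peroxides and S-transferases attach it to reactive compounds, while the thioredoxin and peroxiredoxin system reduces peroxides in parallel. Superoxide dismutases turn superoxide into hydrogen peroxide. Many of these genes respond to the transcription factor NRF2, which binds the antioxidant response element and is held low by KEAP1.

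Signals below are log2 intensities after background correction and quantile normalization, given in the order epiblast, reverted and embryonic stem cells. A detection p-value under 0.01 was required to call a gene detected, and a difference counted from 2-fold. Where a gene was undetected on the dimmer of the arrays compared, the size is a lower bound, written "at least". The standard error over beads covers the beads of the probe on these arrays and nothing else. Between 38.4% and 42.0% of probes were detected per array. Of the 51 members, 41 were detected on at least 1 array (80.4%, against 49.6% of all genes) and 34 on all 3. The 10 detected on no array were Gclc, Gpx5, Gpx6, Gsta1, Gsta2, Gstm3, Gsto2, Gstt4, Mgst2 and Sod3.

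Marker genes matched the labels of the cultures. Of 8 naive pluripotency markers with a value, 7 were higher by 2-fold or more in reverted than in epiblast stem cells, and 7 of 9 primed markers were lower by 2-fold or more. Esrrb and Zfp42, both naive markers, were 86.5-fold and 69.8-fold higher (log2 6.44 and 6.13), and by 5.11 and 4.62 on the log2 scale with uncorrected background. All 6 shared pluripotency markers were detected on the 3 arrays. Their levels were not all alike: 1 was higher and 2 were lower by 2-fold or more in reverted than in epiblast stem cells. Of 16 fibroblast markers, 5 were detected in the epiblast culture, which alone had feeders, 0 in reverted and 2 in embryonic stem cells. The log2 of the summed signal of all 16, undetected genes included, was 9.52, 8.40 and 8.52. With 0 detected, the reverted value holds undetected genes alone. The collagen genes Col1a1, Col1a2, Col3a1 and Col6a2 were detected on no array, nor were Fap, Lum, Postn, Prrx1 and S100a4. In bulk RNA, fewer cells of a type and less RNA per cell cannot be told apart.

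The promoters below are shown first: the 3 pi class neighbours, whose signals differed unevenly, and, from the alpha and mu classes, Gsta3 and Gstm5, which differed between the cultures in opposite directions. Each window holds the 250 bases before the RefSeq transcription start on GRCm38.p6. Gstp1 lies at chr19:4037913-4038162, Gstp2 at chr19:4042222-4042471 and Gstp3 at chr19:4059448-4059697, all on the minus strand, and they are neighbours. Gsta3 lies at chr1:21240335-21240584 and Gstm5 at chr3:107895604-107895853, both on the plus strand. Capitals mark the core of the antioxidant response element, searched on both strands as TGACNNNGC and TGAGNNNGC.
Gstp1: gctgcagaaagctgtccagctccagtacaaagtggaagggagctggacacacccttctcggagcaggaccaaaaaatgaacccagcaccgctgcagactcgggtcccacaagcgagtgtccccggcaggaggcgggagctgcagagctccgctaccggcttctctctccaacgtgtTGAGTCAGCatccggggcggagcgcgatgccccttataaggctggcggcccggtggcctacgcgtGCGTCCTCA
Gstp2: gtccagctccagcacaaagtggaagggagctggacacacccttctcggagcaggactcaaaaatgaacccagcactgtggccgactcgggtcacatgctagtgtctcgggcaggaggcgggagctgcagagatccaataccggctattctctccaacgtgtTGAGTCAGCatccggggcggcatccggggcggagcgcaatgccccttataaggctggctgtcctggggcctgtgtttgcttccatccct
Gstp3: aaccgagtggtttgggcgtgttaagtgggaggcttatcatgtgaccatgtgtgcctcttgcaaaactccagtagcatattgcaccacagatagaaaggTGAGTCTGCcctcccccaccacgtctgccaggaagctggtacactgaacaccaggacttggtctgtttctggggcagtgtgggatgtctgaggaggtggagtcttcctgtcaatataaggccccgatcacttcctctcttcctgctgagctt
Gsta3: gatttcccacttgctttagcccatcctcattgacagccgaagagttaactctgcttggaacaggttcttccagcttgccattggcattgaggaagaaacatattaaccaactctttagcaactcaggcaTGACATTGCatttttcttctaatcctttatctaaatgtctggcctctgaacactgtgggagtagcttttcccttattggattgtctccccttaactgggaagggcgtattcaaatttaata
Gstm5: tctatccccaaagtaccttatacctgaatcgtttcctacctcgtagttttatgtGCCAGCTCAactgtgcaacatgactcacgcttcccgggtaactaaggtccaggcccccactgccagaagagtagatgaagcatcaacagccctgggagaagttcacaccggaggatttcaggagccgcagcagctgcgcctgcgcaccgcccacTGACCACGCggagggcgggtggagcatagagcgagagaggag

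The Gstp1 and Gstp2 windows were alike at 208 of 265 aligned positions (78.5%) and both held TGAGTCAGC, 74 and 89 bases before the start. The Gstp3 window matched that of Gstp2 at 51.9% of positions and held TGAGTCTGC. Gsta3 held TGACATTGC 121 bases before its start and Gstm5 held TGACCACGC 42 bases before its own. RefSeq windows existed for 46 of the 51 members, 60 windows in all, and 15 of these held a match to either spelling. Among the 51 windows of detected members 14 did (27.5%), against 23.0% of all 32851 windows. TGACNNNGC alone was in 11.8% of the windows of detected members and 10.2% of all windows. TGAGNNNGC, a spelling added after the windows were seen, was in 17.6% and 14.4%. Over all windows, matches overlapped in 76. All windows shown held a match, but those of many other members that differed between the cultures did not. The windows of Gstk1, Gpx8, Gsto1, Glrx5, Prdx2, Prdx4, Sod2, Gstm2, Gss and Nqo1 held none. Gclm and Mgst1, which also differed, held a match, as did Gstp1, which hardly differed. A match describes the letters and does not show that a factor binds.

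The comparison of reverted with unreverted cells of the same line asked which of these enzymes differed with reversion. Gstp2, a pi class S-transferase, was higher in reverted cells by at least 64.2-fold. Smaller differences in that direction were measured for the alpha class gene Gsta4 (2.42-fold) and the mitochondrial dismutase Sod2 (3.25-fold), and for Gsta3, Gstm2, the quinone reductase Nqo1 and the glutathione synthetase Gss, whose differences depended on the background correction. Gstm5, Gstk1, Gpx8, Gsto1, Glrx5, Gclm and the peroxiredoxin Prdx4 were lower. The peroxiredoxin Prdx2, Gstt2 and Mgst1 were also lower, but by 2-fold or more only under some of the processing choices. Of 41 members with a value, 7 (17.1%) were higher by 2-fold or more in reverted cells, where 12.7% of all genes were, and 10 (24.4%) lower by 2-fold or more, where 12.4% of all genes were. The other 24 (58.5%) lay within 2-fold, where 74.9% of all genes did. The member median was 0.09 on the log2 scale beside −0.02 over all genes, and −0.05 with the mean of each gene's probes, so the enzymes differed in both directions. Their quartiles were −0.92 and 0.68, beside −0.57 and 0.56 over all genes.

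**Figure D1:**
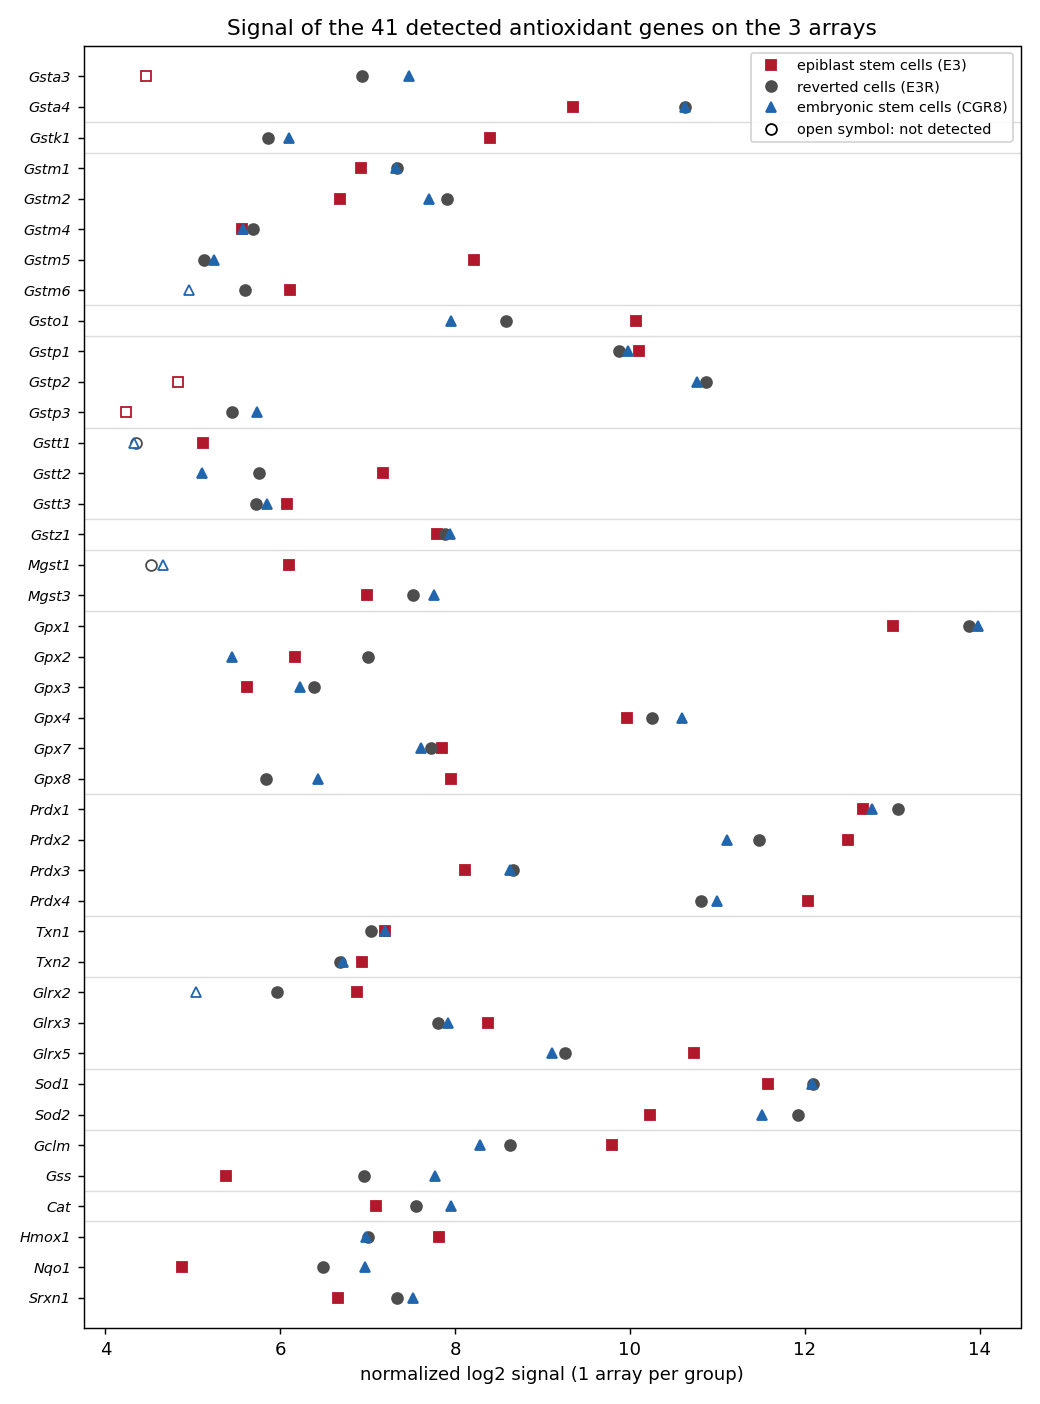
Normalized log2 signal of the 41 detected genes on the 3 arrays, 1 symbol per array, with open symbols where the array did not detect the gene; grey lines part the enzyme classes. Gstp2 stands apart, at 4.83 in epiblast stem cells against 10.87 and 10.77 in the other cultures, while Gstp1 lies near 10 on all 3 arrays.

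Among S-transferases, which conjugate glutathione to reactive compounds, the pi class showed the widest spread. Gstp2 had log2 signals of 4.83, 10.87 and 10.77, and raw intensities of 94.8, 1714 and 1935. The epiblast array did not detect it, at a detection p of 0.011, which lies just above the threshold. It was thus higher in reverted cells by at least 64.2-fold (log2 6.01), a size that ranged from 4.35 without background correction to 7.04 with the authors' processed values.

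Gstp1, its neighbour, had signals of 10.10, 9.88 and 9.97. That is a difference of −0.22 between reverted and epiblast stem cells (bead standard error 0.08), and a further Gstp1 probe detected on all arrays gave −0.25. Gstp3, the third gene of the cluster, was detected in reverted (5.45) and embryonic stem cells (5.73) and not in epiblast stem cells (4.24), which left a difference of at least 0.58 on the log2 scale. The pi class genes are close copies of each other, so a probe may also bind a relative's transcript, which was not tested.

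In the alpha class, Gsta4, which clears the lipid peroxidation product 4-hydroxynonenal, had signals of 9.35, 10.63 and 10.63. It was 2.42-fold higher in reverted cells (log2 1.28, bead standard error 0.08). Gsta3 had signals of 4.46, 6.94 and 7.47 and was not detected in epiblast stem cells. Its difference was at least 4.20-fold, but was under 2-fold with uncorrected background (log2 0.99) or with the mean of its 2 probes (0.82), the other of which was detected on no array. Thus both detected genes of the class were higher in the cultures grown with the inhibitors and LIF.

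The mu class, whose genes lie side by side on chromosome 3, went both ways. Gstm5 had signals of 8.21, 5.13 and 5.24 and was 8.45-fold lower in reverted cells (log2 −3.08, bead standard error 0.20; −1.84 without background correction). Gstm2 ran the other way, at 6.68, 7.90 and 7.71, and was 2.34-fold higher (log2 1.23, bead standard error 0.12). For Gstm2, 2 probes gave 1.23 and 1.24 and another gave 0.34, and the gene was under 2-fold with uncorrected background (0.86) and with the probe mean (0.94). Gstm1, Gstm4 and Gstm6 differed by 0.41, 0.13 and −0.51 on the log2 scale, all within 2-fold. These paralogs, too, are alike in sequence, so single probes may not tell them apart.

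Single genes of the other S-transferase classes were lower in reverted cells. Gstk1, the kappa class enzyme of mitochondria and peroxisomes, had signals of 8.40, 5.86 and 6.10. It was 5.84-fold lower in reverted cells (log2 −2.55, bead standard error 0.12; −1.70 without background correction). Gsto1, an omega class enzyme that also reduces dehydroascorbate, had signals of 10.07, 8.58 and 7.95 and was 2.81-fold lower (log2 −1.49, bead standard error 0.11).

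Gstt2, of the theta class, had signals of 7.18, 5.76 and 5.11. It was 2.68-fold lower in reverted cells (log2 −1.42), but under 2-fold with uncorrected background (−0.81). Gstt3 differed by −0.36 and Gstz1, which isomerises maleylacetoacetate in tyrosine breakdown, by 0.09. Gstt1 was detected in epiblast stem cells alone, at 5.12, and its bound of 1.04-fold leaves next to no measurable difference.

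Of the microsomal S-transferases, which sit in membranes, Mgst1 was detected in epiblast stem cells alone, with signals of 6.10, 4.52 and 4.66. Its signal was lower in reverted cells, by at least 2.05-fold. That size was under 2-fold with uncorrected background (log2 −0.44), an offset of 50 (−0.61) and the probe mean (−0.30), and only just so with median scaling. The mean includes the other Mgst1 probe, which was detected on no array. The probes of Mgst3 disagreed: the brighter gave 0.52 and the other −0.70.

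Among glutathione peroxidases, 1 was past 2-fold. Gpx8, a peroxidase of the endoplasmic reticulum, had signals of 7.96, 5.83 and 6.43. It was 4.36-fold lower in reverted cells (log2 −2.13, bead standard error 0.16; −1.35 without background correction), and its 3 probes ranged from −2.39 to −2.13. Gpx7, which shares that compartment, had signals of 7.85, 7.73 and 7.61 and so hardly differed.

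Gpx1, the cytosolic selenoenzyme, had signals of 13.01, 13.88 and 13.98 and was 1.82-fold higher in reverted cells, below the threshold. Gpx2, known from gut epithelium, and the secreted Gpx3 were 1.79-fold and 1.70-fold higher. Gpx4, which reduces lipid hydroperoxides, differed by 0.29 and its other probe by 0.33. Hence 5 of the 6 peroxidases with a value lay within 2-fold.

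Peroxiredoxins reduce peroxides through reactive cysteines. Prdx4, the form of the endoplasmic reticulum, had signals of 12.04, 10.81 and 11.00 and was 2.35-fold lower in reverted cells (log2 −1.23, bead standard error 0.07). Prdx2, a cytosolic form, had signals of 12.49, 11.48 and 11.11. It was 2.02-fold lower (log2 −1.02, bead standard error 0.08), on the edge of the threshold. Prdx2 fell just under it with uncorrected background and further under it with the mean of its probes (−0.63). Another detected Prdx2 probe gave −0.71. Prdx1 and the mitochondrial Prdx3 went the other way by 0.41 and 0.55, within 2-fold. Srxn1, the sulfiredoxin that restores overoxidised peroxiredoxins, was 1.60-fold higher, and its 3 probes ranged from 0.53 to 0.69.

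Thioredoxins and glutaredoxins reduce disulfides. Txn1 and its mitochondrial relative Txn2 differed by −0.16 and −0.26 on the log2 scale. The other Txn1 probes were detected on no array. Glrx5, which serves iron-sulfur cluster assembly in mitochondria, had signals of 10.74, 9.26 and 9.11 and was 2.78-fold lower in reverted cells (log2 −1.47, bead standard error 0.09). Glrx2 followed at 1.89-fold lower, just short of the threshold (log2 −0.92), and at −1.11 with the authors' processed values. Glrx3 differed by −0.57 with its brightest probe and by 0.18 with another.

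The dismutases and catalase gave 1 gene past 2-fold. Sod2, the manganese enzyme of mitochondria, had signals of 10.23, 11.93 and 11.51 and was 3.25-fold higher in reverted cells (log2 1.70, bead standard error 0.10). Sod1, the copper-zinc enzyme of the cytosol, was 1.43-fold higher and Cat, the peroxisomal catalase, 1.37-fold. Sod3, the extracellular form, was detected on no array.

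The steps of glutathione synthesis differed in direction. Gclm, the modifier subunit of glutamate-cysteine ligase, had signals of 9.79, 8.63 and 8.29. It was 2.24-fold lower in reverted cells (log2 −1.16, bead standard error 0.09). Gss, which adds glycine in the last step, had signals of 5.38, 6.95 and 7.77 and was 2.98-fold higher (log2 1.57, bead standard error 0.16). Its 3 probes ranged from 0.65 to 1.57, and without background correction the difference was 0.82, under 2-fold. Gclc, the catalytic subunit of the ligase, was detected on no array.

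Of the NRF2-inducible enzymes Nqo1, Hmox1 and Srxn1, 1 was past 2-fold. Nqo1, which reduces quinones, had signals of 4.88, 6.49 and 6.97 and was 3.05-fold higher in reverted cells (log2 1.61, bead standard error 0.20). The epiblast array detected it narrowly, at a detection p of 0.0075, and the difference was under 2-fold with uncorrected background (0.71), with an offset of 50 (0.96) and with the probe mean (0.85). That mean includes the other Nqo1 probe, which was detected on no array. Hmox1, which breaks down heme, had signals of 7.81, 7.01 and 6.98 and was 1.75-fold lower.

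**Figure D2:**
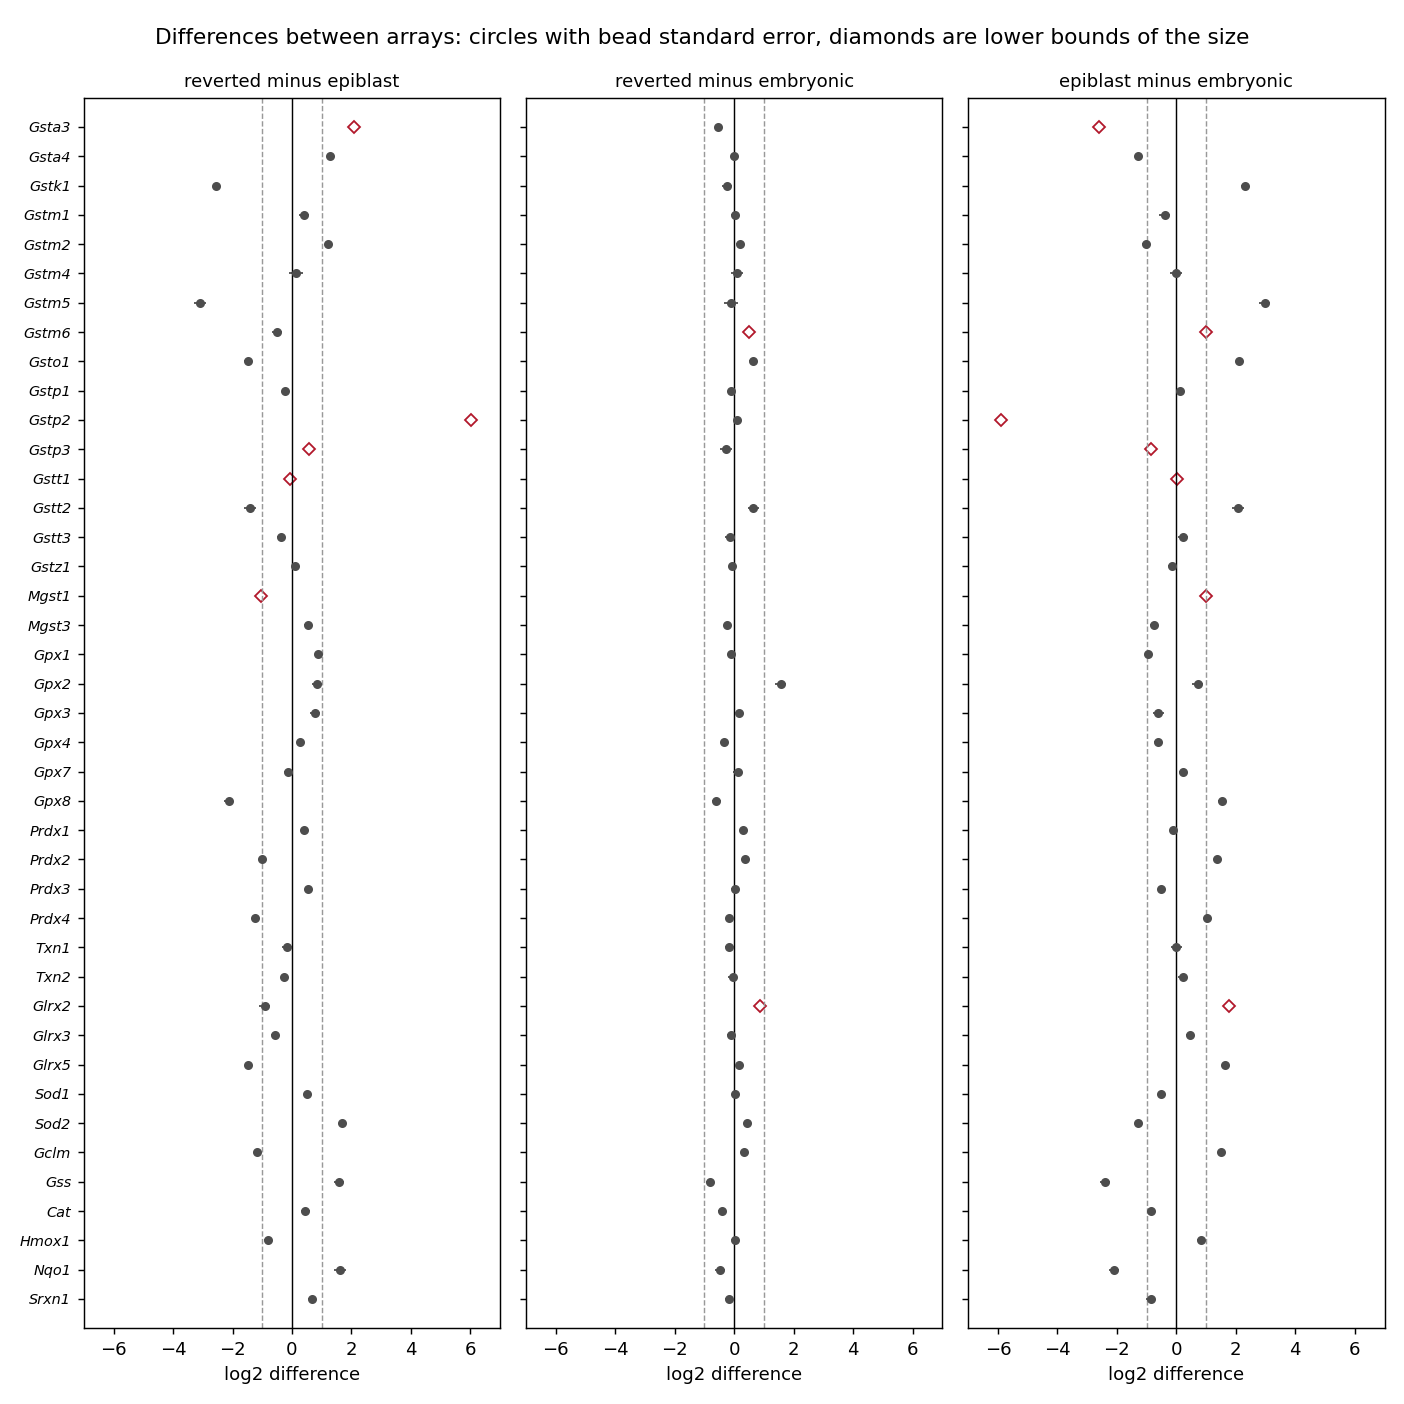
Log2 difference of each detected gene in the 3 comparisons, with the bead standard error as a bar and diamonds where the size is a lower bound; dashed lines mark 2-fold. In the middle panel 38 of 39 genes lie within the lines, whereas in the left panel 17 of 41 lie outside them.

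In all, 3 of the 7 genes higher and 7 of the 10 lower in reverted cells stayed past 2-fold under each of 6 alternatives: uncorrected background, an offset of 50, median scaling, the authors' processed values, the looser detection p-value and the probe mean. These were Gstp2, Gsta4 and Sod2 upward and Gstm5, Gstk1, Gpx8, Gsto1, Glrx5, Prdx4 and Gclm downward. The share of all genes that stayed so is not given here, so the counts describe these members only. When detection on both arrays was required, 5 higher and 9 lower were left, without Gstp2, Gsta3 and Mgst1. Over all genes that setting gave 797 higher and 759 lower of 6385. At a 3-fold threshold 4 higher and 3 lower were left, and Gsta4, Gsto1, Glrx5, Prdx4 and Gclm were not among them. Over all genes 427 higher and 332 lower of 7726 were past 3-fold. The 5 fibroblast markers detected in the epiblast culture were Thy1 at 7.74, Bgn at 6.77, Dcn at 6.43, Fbln2 at 5.86 and Col6a1 at 4.90. Of these, 4 had a value against reverted cells, and 3 of the 4 were lower there by 2-fold or more. That count was 1 with uncorrected background, 2 with an offset of 50 or the probe mean, and 4 with the authors' processed values. The part of these markers in the differences of the members was not tested.

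Where a gene had several probes, 10 members had at least 2 with a value. In 8 of these the probes shared a sign between reverted and epiblast stem cells, and in 2, Glrx3 and Mgst3, they did not.

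**Figure D3:**
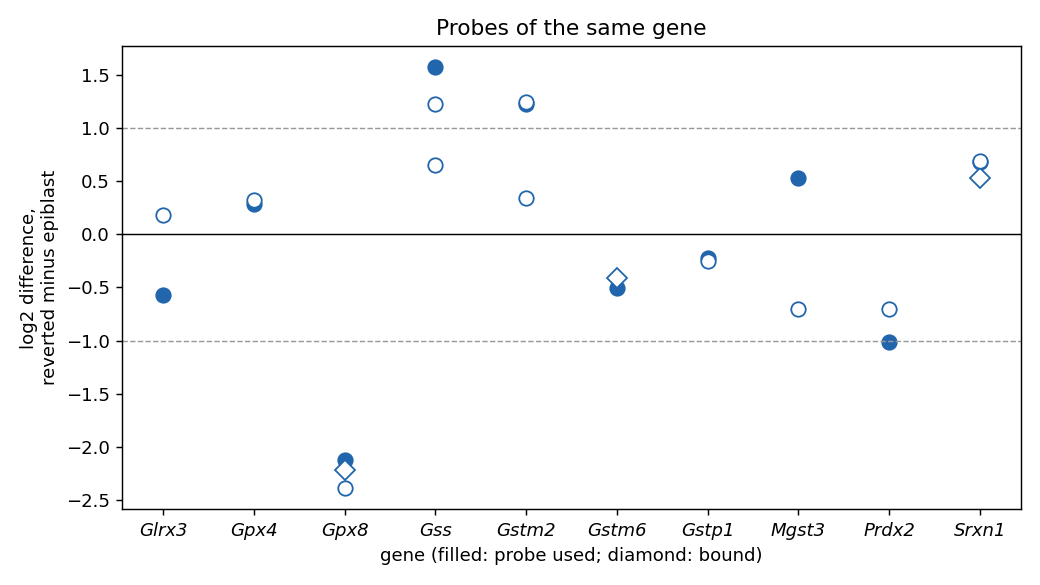
Log2 difference between reverted and epiblast stem cells for each probe of the 10 genes with at least 2 measured probes; filled symbols mark the probe used and diamonds are bounds. The 3 Gpx8 probes sit together between −2.39 and −2.13, while those of Glrx3 and Mgst3 fall on both sides of 0.

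The comparison of reverted cells with embryonic stem cells in the same medium asked what still set the lines apart. Among the antioxidant enzymes little did: 38 of 39 members with a value lay within 2-fold (97.4%), near the 96.7% of all genes. Gpx2 was the exception, with signals of 6.17, 7.01 and 5.45, and was 2.95-fold higher in reverted than in embryonic stem cells (log2 1.56, bead standard error 0.19). It was under 2-fold with uncorrected background (0.83). All genes past 2-fold upward came to 1.81%, and downward to 1.54%, where 0 members lay.

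Several members that differed from epiblast stem cells were close in these cultures. Gstp2 differed by 0.11 between reverted and embryonic stem cells (bead standard error 0.08), Gsta4 by 0.00, Gstm5 by −0.11 and Gstk1 by −0.25. Gss was further apart, at 1.76-fold lower in reverted cells (log2 −0.82, bead standard error 0.14), and its other probes gave −0.85 and −0.29. Gpx8 was 1.51-fold lower by the probe used, and another of its probes gave −1.21, which is past 2-fold. On the other side, Gsto1 was 1.54-fold, Gstt2 1.57-fold and Glrx2 at least 1.82-fold higher in reverted cells. Markers of extraembryonic endoderm differed between these arrays, and 4 of 9 were detected on each array. The log2 of the summed signal of all 9, undetected genes included, was 8.96, 9.05 and 10.32. All 4 detected markers were lower by 2-fold or more in reverted than in embryonic stem cells (3 of them with uncorrected background). Their part was not tested.

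Epiblast stem cells set against embryonic stem cells differ in line, medium, feeders and harvest at once. Of 41 members with a value, 11 (26.8%) were higher by 2-fold or more in epiblast stem cells, where 13.9% of all genes were, and 7 (17.1%) lower by 2-fold or more, where 13.4% of all genes were. The other 23 (56.1%) lay within 2-fold, where 72.7% of all genes did. The member median was 0.00, beside 0.01 over all genes. This comparison shares the epiblast array with the first and the embryonic array with the second, so it is no independent repeat of either.

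Upward in epiblast stem cells, Gstm5 was 7.84-fold, Gstk1 4.92-fold, Gsto1 4.33-fold and Gstt2 4.19-fold higher than in embryonic stem cells. With uncorrected background Gstm5 differed by 1.80, Gstk1 by 1.58 and Gstt2 by 1.07 on the log2 scale. Glrx5, Gpx8, Gclm, Prdx2 and Prdx4 were 3.09-fold, 2.88-fold, 2.83-fold, 2.61-fold and 2.06-fold higher. Glrx2 was at least 3.43-fold higher, with 1.78 on the log2 scale going to 0.87 without background correction and to 0.21 with the probe mean. The other Glrx2 probes, which enter that mean, were detected on no array. Gstm6 only just reached the threshold and was under it with uncorrected background (log2 0.43), an offset of 50 (0.59) and the probe mean (0.69), and Mgst1 only just missed it, as bounds.

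Downward, Gstp2 was at least 59.6-fold, Gsta3 at least 6.07-fold and Gss 5.25-fold lower in epiblast than in embryonic stem cells. With uncorrected background these differences were −4.25, −1.35 and −1.40 on the log2 scale. Nqo1 was 4.27-fold, Sod2 2.43-fold, Gsta4 2.42-fold and Gstm2 2.04-fold lower, and Nqo1 only just reached 2-fold with uncorrected background. Gpx1 was lower by 0.97 on the log2 scale, just within the threshold. Gstm2 was under 2-fold with uncorrected background (log2 −0.71), with an offset of 50 (−0.83) and with the probe mean (−0.78), and Gsta3 was only just under it with the probe mean.

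Genes that regulate or feed these enzymes were followed in 6 further lists, all against the same background of 12.7% higher and 12.4% lower in reverted than in epiblast stem cells. Of 7 NRF2 regulators with a value, 2 were higher by 2-fold or more in reverted cells and 0 lower, with a list median of 0.16. Nfe2l2, the gene of NRF2 itself, had signals of 5.91, 7.34 and 7.41 and was 2.69-fold higher. Keap1, whose protein marks NRF2 for degradation, had signals of 7.24, 8.44 and 7.95 and was 2.30-fold higher. Bach1, a repressor at the same DNA element, was 1.42-fold lower. With uncorrected background both differences were under 2-fold (log2 0.85 for Nfe2l2 and 0.93 for Keap1), as they were with the probe mean (0.74 and 0.81), and 0 regulators were then past 2-fold.

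Among other genes around thioredoxin, 3 of 14 were higher by 2-fold or more in reverted cells and 0 lower, with a median of 0.37. Msrb1, a selenoenzyme that repairs oxidised methionine, had signals of 5.91, 7.77 and 7.73 and was 3.65-fold higher. Nxn, or nucleoredoxin, was 2.69-fold and Txnip, which binds and inhibits thioredoxin, 2.01-fold higher. Txnip was under 2-fold with uncorrected background (log2 0.91) and Msrb1 with the probe mean (0.85). Of 11 genes of NADPH supply, which both reducing systems draw on, 3 were higher by 2-fold or more and 0 lower, with a median of 0.33. Idh2, the mitochondrial isocitrate dehydrogenase, was 3.14-fold higher, and the others of the 3 only just reached 2-fold. With uncorrected background or an offset of 50, 1 gene of this list was past 2-fold. The authors' processed values gave 2 higher and 1 lower. Idh1 and the malic enzyme gene Me1 were 1.45-fold and 1.70-fold higher in reverted than in epiblast stem cells, yet 2.34-fold and 2.72-fold lower than in embryonic stem cells. The last difference was under 2-fold with the probe mean (log2 −0.68).

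Glutathione supply and turnover gave 1 of 10 genes higher by 2-fold or more in reverted cells and 3 lower, with a median of −0.53. Chac1, which degrades glutathione and also answers the integrated stress response, had signals of 11.32, 9.77 and 8.47 and was 2.92-fold lower. Esd, or S-formylglutathione hydrolase, had signals of 7.93, 6.54 and 5.43 and was 2.61-fold lower, and Ggct was 1.74-fold lower. With uncorrected background 0 of the 10 were higher and 1 lower, and Esd was under 2-fold (log2 −0.96), as with the probe mean (−0.48). For these 3 genes the reverted signal lay between those of the other cultures. Slc7a11, which imports cystine for glutathione synthesis, was detected on no array.

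Other NRF2 targets gave 1 of 9 genes higher and 1 lower, with a median of 0.10. Ephx1, the microsomal epoxide hydrolase, was 2.45-fold higher and Cbr1, a carbonyl reductase, 2.50-fold lower, while Blvrb, a biliverdin reductase, was 1.99-fold lower. Ephx1 was under 2-fold with uncorrected background (log2 0.81). In the list of selenoproteins and their synthesis, 0 of 9 were higher by 2-fold or more and 2 lower, with a median of −0.25. Selenow had signals of 9.14, 7.02 and 6.40 and was 4.34-fold lower in reverted cells, and Selenos, of endoplasmic reticulum quality control, was 2.48-fold lower. Selenok was 1.25-fold lower than in epiblast and 2.38-fold lower than in embryonic stem cells, the latter under 2-fold with uncorrected background (log2 −0.69).

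**Figure D4:**
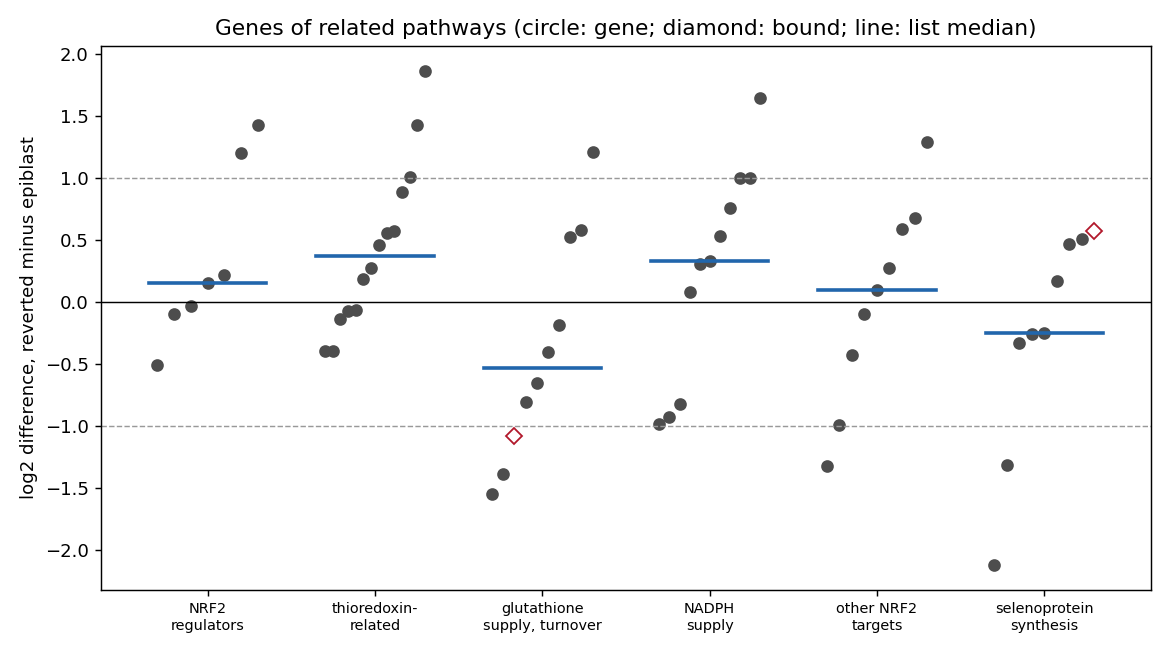
Log2 difference between reverted and epiblast stem cells for genes of 6 related lists, each symbol a gene, diamonds bounds and blue lines list medians; dashed lines mark 2-fold. Medians run from −0.53 for glutathione supply and turnover to 0.37 for the thioredoxin-related list.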

How the data were processed

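Total RNA of each of the 3 cultures was hybridised to 1 Illumina bead array. Per the labels' protocols, labelling used 400 ng of RNA, an in vitro transcription of 12 h and Cy3. BeadStudio made the files, per the submitters' processing notes. The authors deposited for each probe a raw intensity, the bead error and a detection p-value. Their processed intensity values, normalized by a method not given in the sources, served as an alternative only.

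The raw intensities went through neqc of limma 3.58.1 in R 4.3.3: background modelled on detection p-values, offset 16, quantile normalization, log2. Python 3.11.15, pandas 2.3.3, numpy 2.4.6 and matplotlib 3.10.9 did the rest. The platform table named 1 symbol for 23978 probes and none for 1719, and 23962 symbols were updated by gene identifier from the RefSeq table of GRCm38.p6. A gene with several probes takes the one with the highest mean signal. An undetected gene entered at the lowest signal among detected probes of its array (log2 4.87, 5.06 and 5.10) or at its own if higher. No value was given where neither array detected the gene or where such a bound left no difference. The normalization was tested on simulated data with known folds, set only in probes well above background. Folds of genes near background were not part of that test.

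Members and gene lists were chosen with earlier results of these data known. Named were the members, up to 3 genes of each other list with the largest differences, and fixed pluripotency markers. Further fibroblast markers, Slc7a11, the probe values of single genes and the second spelling of the promoter motif were chosen after values were seen. The number of arrays limits the precision.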

Additional observations from a re-analysis of the deposited data

How the results depend on the processing

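The alternatives left the background uncorrected, used an offset of 50, scaled arrays to the same median, took the authors' processed values, averaged a gene's probes, loosened the detection p-value to 0.05, raised the threshold to 3-fold, or required detection on both arrays compared. The mean of probes took all probes of a gene, detected or not, so undetected probes make its differences smaller. Of 36 member differences of 2-fold or more over the 3 comparisons, 11 were under 2-fold with uncorrected background, 9 with the mean of probes, 4 with the offset of 50, 1 with median scaling and 0 with the authors' values or the looser detection, and none changed sign. The looser detection added 2 calls, median scaling 1 and the authors' values 6. Counts of members moved by over 1.5 times as follows. Members higher in reverted than in epiblast stem cells went from 7 to 3 without background correction and to 4 with the mean of probes or at 3-fold, and those lower from 10 to 3 at 3-fold. Higher than in embryonic stem cells, 1 became 0 without background correction or at 3-fold and 3 with the authors' values. Between epiblast and embryonic stem cells 3-fold left 6 higher and 4 lower. The member median between reverted and epiblast stem cells, 0.09, ran from −0.05 with the mean of probes to 0.13 with the looser detection. Over all genes, reverted against epiblast stem cells gave 981 higher and 957 lower, but 553 and 470 with uncorrected background, 688 and 618 at offset 50, and 427 and 332 at 3-fold. Reverted against embryonic stem cells gave 132 and 112, but 38 and 37, 59 and 55, and 26 and 24 in that order, and 219 and 210 with the authors' values. Epiblast against embryonic stem cells gave 1067 and 1035, but 538 and 572, 690 and 721, and 410 and 467. Sizes of genes near background, such as Nqo1, Gsta3 and Mgst1, depend on its correction. The same alternatives for genes of the other lists were added after seeing the data, and none of their differences of 2-fold or more changed sign. No paired analysis was possible because each group has 1 array.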
